A study of Mus musculus with 12 samples.

Results

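The common gamma-chain cytokine receptors are a family of surface receptors that share 1 signalling subunit, and 7 genes of the family were described here in progenitor CD8+ T cells with and without UTX: *Il2rg*, *Il2rb*, *Il2ra*, *Il15ra*, *Il4ra*, *Il21r* and *Il7r*. They were chosen by name, and all 7 were among the 25860 genes listed for RNA-seq. In the ATAC-seq table, 19 of the 23932 listed peaks carried the name of 1 of the 7. Each of the 2 assays had 3 WT and 3 *UTX TCD* libraries from mice with the NOD-TCR 8.3 transgene, and the question was how UTX acts on expression and chromatin accessibility in T_prog_ cells.

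UTX is a histone demethylase encoded by the X-linked gene *Kdm6a*. Every mouse was a female on the NOD background, the strain that develops autoimmune diabetes, and carried the transgenic NY8.3 T cell receptor, which recognizes a peptide of the beta cell protein IGRP. *UTX TCD* mice were *UTX fl/fl* and *Lck-Cre+*, so the deletion starts in developing thymocytes and covers CD4+ as well as CD8+ T cells, and the floxed allele came from a B6 line backcrossed to NOD. The controls, called WT, were littermates without Cre. The age of the mice behind these libraries is not given in the sources used here. CD8+ cells were sorted from pancreatic lymph nodes. The gate is given as Ly108+CXCR6- in the series' design text and as Ly108+CD39- in the study's methods.

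Each gamma-chain receptor pairs the common chain, encoded by *Il2rg*, with a partner that sets which cytokine is bound. The receptors signal through the kinases JAK1 and JAK3 to STAT proteins, mainly STAT5 for IL-2, IL-7 and IL-15, STAT6 for IL-4 and STAT3 for IL-21. In CD8+ T cells IL-7 supports resting cells, IL-15 supports memory cells, and IL-2 drives expansion and effector differentiation.

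The RNA-seq values were counts per gene divided by 1 size factor per library, called normalized counts here. Sequencing depth, as reads counted in genes, was 146456724, 144503203 and 193568919 in WT replicates 1, 2 and 3, and 61512402, 175462433 and 187275082 in *UTX TCD* replicates 1, 2 and 3. The least covered of the 7 genes, *Il2ra*, rested on 242 to 1056 reads per library. *Kdm6a* had normalized counts of 28365, 28949 and 29172 in WT and of 24158, 24792 and 24579 in *UTX TCD*. All 3 *UTX TCD* libraries were below all 3 WT libraries, by a log2 fold change of -0.23 ± 0.04 (SE; limma, adjusted p = 0.00114). Counts over the whole gene include exons outside the deleted part.

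Markers of CD8+ T cells were abundant in every library. The 8 genes *Cd3d*, *Cd3e*, *Cd3g*, *Cd8a*, *Cd8b1*, *Cd247*, *Lck* and *Tcf7* summed to 1257410, 1194440 and 1227540 normalized counts in WT and to 1207039, 1182656 and 1107272 in *UTX TCD*, and *Cd8a* was the most abundant. None of the 8 was called, but 6 passed the adjusted p without overlap between genotypes, where 40.7% of all genes tested passed it and 51.9% did not overlap. *Cd8b1* (-0.37), *Cd3d* (-0.28), *Cd3g* (-0.26), *Cd247* (-0.19) and *Lck* (-0.17) were lower on the log2 scale and *Cd3e* (0.17) was higher (limma, adjusted p from 0.00485 to 0.0414). Of the sort markers, *Slamf6*, which encodes Ly108, had 27732, 34096 and 23305 in WT and 36665, 30980 and 35425 in *UTX TCD*, with overlap. *Entpd1*, which encodes CD39, lay between 4.42 and 29.6. *Cxcr6* was present in every library, at 12757, 9619 and 13724 in WT against 5286, 5994 and 5695 in *UTX TCD*. It fell by 1.07 ± 0.12 (log2, SE; limma, adjusted p = 0.000131). *Cd44* had 12194, 11856 and 11441 in WT and 13352, 12481 and 14191 in *UTX TCD*, without overlap. At 0.17 (log2 fold change; limma, adjusted p = 0.0322) it was not called.

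WT replicate 2 stood apart from the other WT libraries for some genes, *Il7r* among them. Of 11694 genes that averaged 100 normalized counts or more, 31 were over 1 log2 unit higher in WT replicate 2 than in the mean of WT replicates 1 and 3, and 17 were over 1 log2 unit lower. *Il7r* was 25th from the top of that order, at 1.07 log2 units. The other receptor genes differed there by -0.09 to 0.46 log2 units. Results for *Il7r* and *Il2ra* are therefore given with and without that library.

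Of the 7 receptor genes, 2 rose in *UTX TCD* cells and none fell, calling a gene only if its adjusted p was under 0.05 and its log2 fold change passed 0.5 in size. Over all 14459 genes tested, 17.6% were called, 10.5% higher and 7.05% lower. Counted without the limit on fold change, 4 of the 7 passed the adjusted p, against 40.7% of all genes. For 4 of the 7 the 3 WT and 3 *UTX TCD* libraries did not overlap, against 51.9% of all genes. The median log2 fold change was 0.21 over the 7 genes and 0.00 over all genes tested. With so few genes these shares set nothing apart about the family. The 2 genes that rose were *Il2rb* and *Il4ra*, which are partner chains, while the values of the shared chain *Il2rg* were lower.

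**Figure D1:**
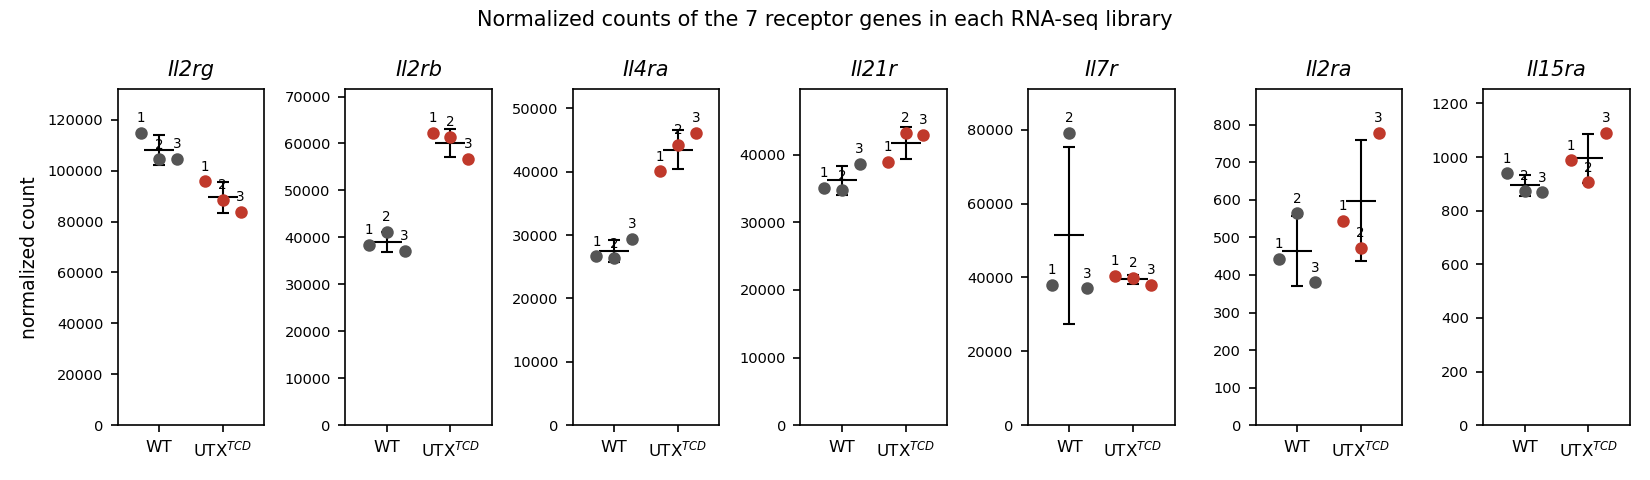
Normalized counts of the 7 receptor genes in each RNA-seq library, with 1 panel per gene and the vertical axis from 0. Points are libraries marked with their replicate number, and the horizontal bar and error bar are the mean and SD of 3 libraries. *Il2rb* and *Il4ra* lay higher in all 3 *UTX TCD* libraries than in any WT library, and WT replicate 2 lay far above the other 5 libraries for *Il7r* at 79127.

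*Il2rg* encodes the common gamma chain. Its normalized counts were 114839, 104557 and 104766 in WT and 95959, 88566 and 83940 in *UTX TCD*. Every *UTX TCD* library was below every WT library. The WT mean was 108054 ± 5877 (SD, n = 3) and the *UTX TCD* mean 89488 ± 6062 (SD, n = 3), a ratio of 0.828. The log2 fold change of -0.27 ± 0.06 (SE) passed the adjusted p (limma, 0.0073) and was within the limit on fold change, so the gene was not called. Of the 8 CD8+ T cell markers, *Cd8b1*, *Cd3d* and *Cd3g* were lower by similar amounts. *Cd247* (-0.19), *Lck* (-0.17) and *Tcf7* (-0.07) were lower by less, and *Cd3e* (0.17) and *Cd8a* (0.13) were higher.

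*Il2rb* encodes the beta chain, which the IL-2 and IL-15 receptors share. Normalized counts were 38451, 41256 and 37165 in WT and 62265, 61468 and 56764 in *UTX TCD*. The lowest *UTX TCD* library was well above the highest WT library, and the spread within each genotype was small. From a mean of 38957 ± 2092 (SD, n = 3) in WT, *Il2rb* rose to 60166 ± 2973 (SD, n = 3), or 1.54-fold. The log2 fold change was 0.63 ± 0.05 (SE; limma, adjusted p = 3.65e-05). In bulk libraries of sorted cells, more cells that carry a transcript and more transcript per cell cannot be told apart, and this holds for each gene here.

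*Il4ra* encodes the chain that binds IL-4. It had 26676, 26343 and 29413 normalized counts in WT and 40082, 44266 and 46123 in *UTX TCD*. All 3 *UTX TCD* libraries were above all WT libraries. *Il4ra* rose from 27477 ± 1685 (SD, n = 3) to 43490 ± 3094 (SD, n = 3), or 1.58-fold, with a log2 fold change of 0.66 ± 0.06 (SE; limma, adjusted p = 6.35e-05).

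*Il21r*, the neighbour of *Il4ra* on chromosome 7, encodes the IL-21 receptor. Its normalized counts were 35102, 34760 and 38672 in WT and 38968, 43212 and 42927 in *UTX TCD*. The genotypes did not overlap, but WT replicate 3 and *UTX TCD* replicate 1 were close to each other. The log2 fold change was 0.21 ± 0.06 (SE; limma, adjusted p = 0.0209), within the limit on fold change. Leaving out 1 library at a time gave 0.18 to 0.25, and the adjusted p missed 0.05 without WT replicate 1 (0.0788), WT replicate 2 (0.0608), *UTX TCD* replicate 2 (0.0815) or *UTX TCD* replicate 3 (0.0579). With all libraries but no trend in limma, the log2 fold change was 0.21 and the adjusted p also missed 0.05 (0.0731).

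*Il7r* encodes the IL-7 receptor chain, which marks resting and memory T cells. It had 38077, 79127 and 37105 normalized counts in WT and 40509, 39892 and 38044 in *UTX TCD*. WT replicate 2 held 2.1 times the mean of the other WT libraries, and the remaining 5 libraries lay between 37105 and 40509 with the genotypes overlapping. With all libraries the log2 fold change was -0.29 ± 0.24 (SE), with a 95% interval from -0.84 to 0.26 (limma, adjusted p = 0.38). Without WT replicate 2 it was 0.07 ± 0.04 (SE), with an interval from -0.03 to 0.17 (limma, adjusted p = 0.24). The sign of the *Il7r* difference thus rested on 1 library, and neither fit called it.

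Other genes of the lists used here were also high in WT replicate 2, and the 3 given were picked after their values were seen. *Bcl2l11*, which encodes the death protein BIM, had 20349 normalized counts there against 13310 and 13858 in the other WT libraries. *Id2*, a regulator of effector cells, had 22179 against 15459 and 13630. *Id3*, a regulator of progenitor cells, had 2918 against 1755 and 1933. Without that library *Id3* was called, at 0.57 (limma, adjusted p = 0.0358), and with it was not, at 0.35 (0.211). What these genes share in that library was not tested.

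*Il2ra* encodes the alpha chain that gives the IL-2 receptor its high affinity and is induced on activation. Its counts were low, at 443, 564 and 381 in WT and 544, 472 and 778 in *UTX TCD*. The genotypes overlapped, and the highest value was in *UTX TCD* replicate 3. The log2 fold change was 0.36 ± 0.20 (SE), with a 95% interval from -0.10 to 0.81 (limma, adjusted p = 0.191). Without WT replicate 2 it was 0.51 ± 0.21 (SE; limma, adjusted p = 0.0925), and without *UTX TCD* replicate 3 it was 0.15 (adjusted p = 0.523).

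*Il15ra*, next to *Il2ra* on chromosome 2, encodes the chain that binds IL-15 and presents it to cells with the beta and gamma chains. It had 939, 874 and 869 normalized counts in WT and 987, 907 and 1090 in *UTX TCD*. The genotypes overlapped, since *UTX TCD* replicate 2 was below WT replicate 1. The log2 fold change was 0.15 ± 0.09 (SE), with a 95% interval from -0.06 to 0.36 (limma, adjusted p = 0.225). It was 0.08 without *UTX TCD* replicate 3 (adjusted p = 0.481) and 0.22 without *UTX TCD* replicate 2 (adjusted p = 0.151).

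**Figure D2:**
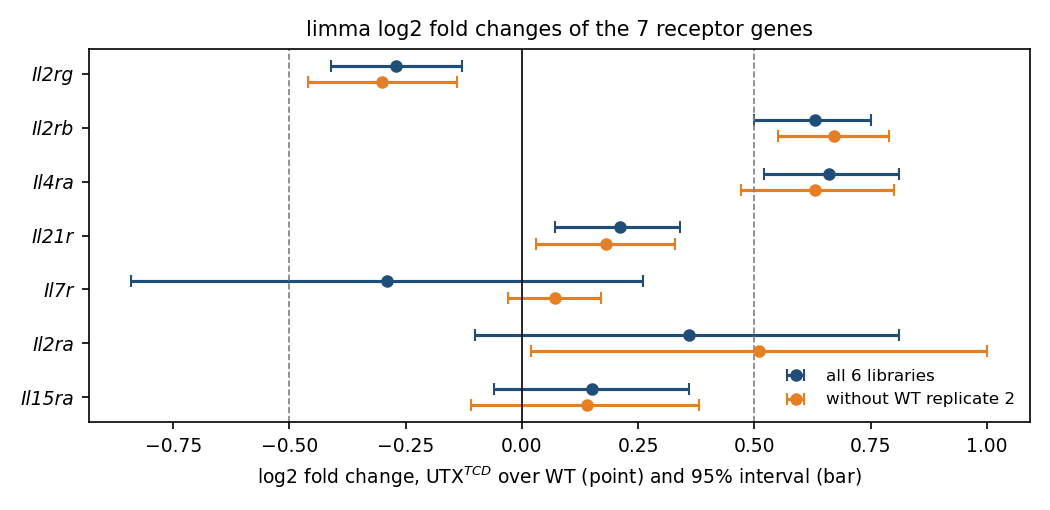
Log2 fold changes of the 7 receptor genes from limma, *UTX TCD* over WT, with all 6 libraries and without WT replicate 2. Points are estimates, bars are 95% intervals, and dashed lines mark the limits of 0.5 on fold change. *Il2rb* and *Il4ra* lay beyond the upper limit in both fits, and *Il7r* moved from -0.29 to 0.07.

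A ratio within 1 library does not depend on how libraries were scaled, so each partner chain was also set against *Il2rg*, as the log2 of the quotient of the normalized counts. For *Il2rb* the log2 ratio was -1.58, -1.34 and -1.50 in WT and -0.62, -0.53 and -0.56 in *UTX TCD*. All *UTX TCD* libraries were above all WT libraries, by 0.90 on average (2-sided exact permutation test, p = 0.1, the smallest p that 3 against 3 allows). For *Il4ra* it was -2.11, -1.99 and -1.83 in WT and lay between -1.26 and -0.86 in *UTX TCD*, a difference of 0.93 with the same exact p of 0.1. The genotypes did not overlap for *Il4ra* either.

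*Il21r* and *Il15ra* also did not overlap on this scale. The log2 ratio of *Il21r* was 0.48 higher in *UTX TCD* and that of *Il15ra* 0.42 higher, each with an exact permutation p of 0.1. For *Il15ra* the ratios were -6.93, -6.90 and -6.91 in WT and -6.60, -6.61 and -6.27 in *UTX TCD*. The normalized counts of *Il15ra* overlapped while these ratios did not. *Il2rg* itself was lower without overlap, at a log2 fold change of -0.27, and this enters every ratio. The share of all genes that would not overlap on this scale was not worked out. The lack of overlap in these ratios therefore sets nothing apart about the partner chains. *Il2ra* overlapped between genotypes, with a difference of 0.63 (exact permutation p = 0.2). *Il7r* overlapped too, with a difference of -0.01 (exact permutation p = 1), or 0.37 without WT replicate 2.

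To compare levels between genes, normalized counts were divided by the length of all exons in kilobases. In WT the order of mean levels per kilobase was *Il2rg* (45268), *Il7r* (11031), *Il21r* (10884), *Il2rb* (9087), *Il4ra* (4578), *Il15ra* (201) and *Il2ra* (81). *Il7r* and *Il21r* overlapped over the 3 libraries, and the other neighbours in that order did not. In *UTX TCD* the order was *Il2rg* (37490), *Il2rb* (14035), *Il21r* (12546), *Il7r* (8467), *Il4ra* (7246), *Il15ra* (224) and *Il2ra* (105), and no neighbours overlapped. *Il2rb* had rank 4 in WT and rank 2 in *UTX TCD*, and *Il15ra* and *Il2ra* were lowest in each genotype. Without WT replicate 2, a choice made after seeing the data, the WT order was *Il2rg*, *Il21r* (11097), *Il2rb* (8819) and *Il7r* (8062), which put *Il2rb* at rank 3.

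The make-up of the partner chains was read as each chain's share of their summed level per kilobase. *Il2rb* made up 27.7%, 23.1% and 25.9% in WT and 34.6%, 32.9% and 31.2% in *UTX TCD*, without overlap. The WT mean for *Il4ra* was 13% ± 2.17 (SD, n = 3) and its *UTX TCD* mean 17% ± 1.1 (SD, n = 3), also without overlap. *Il7r* made up 25.2%, 40.7% and 23.8% in WT and 20.7%, 19.6% and 19.3% in *UTX TCD*. *Il21r* went from a mean of 30.8% to 29.4% and *Il15ra* from 0.569% to 0.525%, so not every partner chain took a larger share. In WT replicate 2, where *Il7r* took 40.7%, both shares were the lowest in WT. For *Il21r* it was 25.1%, against 32.6% and 34.8% in the other WT libraries, and for *Il15ra* 0.471%, against 0.651% and 0.585%. The 6 partner chains together stood to *Il2rg* as 0.674, 0.953 and 0.762 in WT and as 1.04, 1.17 and 1.21 in *UTX TCD*. On this scale the sum exceeded the common chain in each *UTX TCD* library and in no WT library. Levels per kilobase depend on the exon length taken for each gene. Whether partner transcripts outnumbered those of *Il2rg* is therefore not settled.

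The genes most like each receptor gene in pattern were taken by Pearson's r of log2 values over the 6 libraries, among 11693 other genes, as a description. For *Il2rb* they were *Pde4a* (r = 0.9997), *Atf5* (0.9996) and *Simc1* (0.9993). For *Il4ra* they were *Tmem181b-ps* (r = 0.9983), *Gpatch2l* (0.9981) and *Tcf19* (0.9980). *Tcf19* had 1496, 1505 and 1647 normalized counts in WT and 2553, 2787 and 2930 in *UTX TCD*. *Ndufa10* (r = 0.9968), *Lage3* (0.9964) and *Zfp143* (0.9959) were most like *Il2rg*, and *Prrc2a* (0.9966) and *Asb7* (0.9935) were among those most like *Il21r*. So many genes compared over so few libraries give high values of r for any pattern.

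*Cdc123* (r = 0.9909), *Zfp128* (0.9877) and *Neto2* (0.9832) were most like *Il7r*, and *Neto2* had 1089 normalized counts in WT replicate 2 against 736 to 790 in the other libraries. *D2hgdh* (r = 0.9979), *Dctd* (0.9945) and *Zfp677* (0.9894) were most like *Il2ra*. *Rgs1* (r = 0.9869), *Mr1* (0.9766) and *Tmem181a* (0.9723) were most like *Il15ra*. Among the receptor genes themselves, r was 0.92 between *Il2rb* and *Il4ra*, 0.93 between *Il4ra* and *Il21r*, and -0.94 between *Il2rg* and *Il4ra*. Some pairs were weak, such as *Il7r* with *Il2ra* (0.19) and *Il2ra* with *Il21r* (0.34). Both genotypes enter each r, so a difference between genotypes in both genes is enough to give a high value.

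Transcripts of the cytokines were near 0 in these cells. *Il2*, *Il4*, *Il7*, *Il9*, *Il13*, *Il15*, *Il21* and *Tslp*, with the receptor chain *Il9r*, all stayed under the mean normalized count of 10 needed for a test, and their values lay between 0 and 11.2. A count of 3 reads, taken here as the floor for a count of 0, is worth 2.21 to 6.75 normalized counts depending on the library. Of the 11 ligands and other chains, 2 could be tested. *Crlf2* encodes the chain that pairs with the IL-7 receptor chain to bind TSLP, and had 1023, 1130 and 915 in WT and 1887, 1757 and 1862 in *UTX TCD*. It rose without overlap, by a log2 fold change of 0.85 ± 0.09 (SE; limma, adjusted p = 0.000109). *Il13ra1*, which pairs with the IL-4 receptor chain, lay between 7.63 and 40 and was not called.

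None of the 9 kinases and STATs was called, with a median log2 fold change of 0.07. *Jak1*, *Jak3*, *Stat3*, *Stat5a*, *Stat5b* and *Stat6* each had a log2 fold change between -0.03 and 0.11, and none passed the adjusted p. *Jak2* was higher in every *UTX TCD* library, at 38672, 40310 and 39656 against 31851, 35519 and 33191. At 0.24 ± 0.05 (log2 fold change, SE; limma, adjusted p = 0.00415) it was within the limit on fold change.

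Of the 12 feedback and adaptor genes, 3 rose, none fell and 9 were not called, with a median log2 fold change of 0.05, where 10.5% of all genes tested rose and 7.05% fell. The 3 were feedback inhibitors that cytokine signalling is known to induce. *Cish*, a target of STAT5, had 756, 827 and 742 normalized counts in WT and 2423, 2705 and 2161 in *UTX TCD*. Each *UTX TCD* library held several times the value of each WT library, and *Cish* rose 3.13-fold (log2 fold change 1.64 ± 0.09, SE; limma, adjusted p = 3.92e-06). *Socs1* had 888, 966 and 913 in WT and 1415, 1453 and 1514 in *UTX TCD*, and rose by 0.66 ± 0.07 (log2, SE; adjusted p = 0.000154). *Socs3*, a target of STAT3, had 6923, 7675 and 7378 in WT and 11011, 11356 and 15311 in *UTX TCD*, and rose by 0.76 ± 0.11 (log2, SE; adjusted p = 0.000731). In all 3 the genotypes did not overlap. Each of the 3 was also called with any 1 library left out. *Socs2* was low, between 9.91 and 20.8.

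Within the adaptors, *Pik3r1*, the regulatory subunit of PI3K, had 53587, 56593 and 52825 in WT and 43816, 44203 and 38932 in *UTX TCD*, or -0.36 ± 0.06 (log2 fold change, SE; adjusted p = 0.0011). *Pik3cd*, a catalytic subunit of the same enzyme, stood at 0.23 ± 0.05 (log2 fold change, SE; adjusted p = 0.00872). The phosphatase *Ptpn2*, which acts on JAK1, JAK3 and STATs, had -0.30 ± 0.04 (SE; adjusted p = 0.000517). All 3 were within the limit on fold change.

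Of 15 genes known to respond to these cytokines, 2 rose, 1 fell and 12 were not called, with a median log2 fold change of 0.24. The share called was near the 17.6% over all genes tested. *Bcl2*, the survival gene that IL-7 and IL-15 maintain, had 18200, 17081 and 17912 normalized counts in WT and 40707, 39557 and 49953 in *UTX TCD*. It rose 2.45-fold without overlap (log2 fold change 1.28 ± 0.08, SE; limma, adjusted p = 6.75e-06). *Lta*, which encodes lymphotoxin alpha, rose by 0.52 ± 0.09 (log2, SE; adjusted p = 0.00228), close to the limit, and was not called without WT replicate 2 (0.47, adjusted p = 0.00975) or *UTX TCD* replicate 1 (0.43, adjusted p = 0.00498). *Pim1*, a kinase gene induced by STAT5, fell by 0.54 ± 0.14 (log2, SE; adjusted p = 0.0124), from 3429, 3513 and 3454 to 2065, 2120 and 3103. *UTX TCD* replicate 3 was close to the WT values, and *Pim1* was not called without *UTX TCD* replicate 1 (-0.43, adjusted p = 0.0333) or 2 (-0.45, adjusted p = 0.0474). *Gzmb*, which encodes granzyme B, was called only without WT replicate 2, at -0.61 (adjusted p = 0.00432) against -0.47 (0.0217) with all libraries. *Bcl2l11* stood at -0.41 with all libraries (adjusted p = 0.0496), at -0.22 without WT replicate 2 (0.0617), and at -0.52 without WT replicate 1 (0.028), where it was called.

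Of 17 transcription factors known to act on these receptor genes, 3 rose, none fell and 14 were not called, with a median log2 fold change of 0.12, and the share called was near the 17.6% over all genes tested. The adjusted p was passed by 10 of the 17, *Klf2* at -0.46 among them, against 40.7% of all genes. *Tbx21*, which encodes T-bet, had 646, 877 and 589 in WT and 1404, 1420 and 1872 in *UTX TCD*, and rose by 1.16 ± 0.16 (log2, SE; limma, adjusted p = 0.00057). *Eomes*, the related T-box factor, had 13370, 15315 and 13176 in WT and 19100, 19086 and 26829 in *UTX TCD*, and rose by 0.62 ± 0.12 (log2, SE; adjusted p = 0.00388). Without *UTX TCD* replicate 3, its highest library, *Eomes* was not called, at 0.46 (adjusted p = 0.00168). Both T-box factors are known to act on *Il2rb*. *Bach2* rose by 0.59 ± 0.05 (log2, SE; adjusted p = 3.03e-05). *Foxo1*, which acts on *Il7r*, stood at -0.15 ± 0.05 (log2 fold change, SE; adjusted p = 0.0391). *Gfi1*, a repressor of *Il7r*, stood at 0.48 ± 0.10 (adjusted p = 0.00362) and was called without WT replicate 2 (0.59, adjusted p = 0.000803) or *UTX TCD* replicate 3 (0.55, adjusted p = 0.00349). *Runx1* stood at 0.44 (adjusted p = 0.000772) and was called without WT replicate 1, at 0.50 (adjusted p = 0.00077).

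Genes of other cell types were read beside the receptors those cells also use. For B cells, which use *Il4ra* and *Il21r*, 6 markers summed to 2957, 2442 and 2805 normalized counts in WT and to 1226, 1083 and 1008 in *UTX TCD*. Of 4 tested, 1 rose and 1 fell, where 10.5% of all genes tested rose and 7.05% fell. *Cd79b* was the most abundant and fell from 2502, 1930 and 2465 to 648, 633 and 470. *Pax5* lay between 0 and 11.1 and *Ebf1* between 1.6 and 7.37. *Ms4a1* rose from 5.94, 19.7 and 8.39 to 20.2, 29.6 and 73, at 1.72 (log2; limma, adjusted p = 0.0367). It was not called without WT replicate 1 (1.38, adjusted p = 0.119), WT replicate 3 (1.60, 0.0889), *UTX TCD* replicate 2 (1.84, 0.0681) or *UTX TCD* replicate 3 (1.21, 0.112). The part of B cells in the *Il4ra* and *Il21r* values was not tested.

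For NK cells, which use *Il2rb*, the marker *Ncr1* lay between 0 and 6.93, and *Klra8* was at 0 in every WT library and at 4.5, 4.8 and 9.58 in *UTX TCD*. *Klre1* rose from 10.9, 15.8 and 9.15 to 49.5, 45.6 and 74.5. *Klrb1c* went the other way, from 28.7, 55.3 and 16.8 in WT to 13.5, 5.61 and 25.8 in *UTX TCD*, with overlap. It was not called, at -1.18 (log2 fold change; limma, adjusted p = 0.14). The 5 NK markers summed to 13417, 15386 and 13202 in WT and to 19167, 19142 and 26941 in *UTX TCD*, nearly all of it *Eomes*, which CD8+ T cells also express. Of 3 tested, 2 rose, *Klre1* and *Eomes*, where 10.5% of all genes tested rose. The part of NK cells in the *Il2rb* values was not tested.

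For CD4+ and regulatory T cells, which carry *Il2ra*, the 6 markers summed to 17973, 25556 and 18539 in WT and to 29436, 30481 and 43115 in *UTX TCD*. Of the 6, 1 rose and 2 fell, where 10.5% of all genes tested rose and 7.05% fell. *Ikzf2*, the most abundant and also a gene of CD8+ progenitors, rose from 16070, 23689 and 16696 to 27524, 28668 and 41034. *Foxp3* had 317, 235 and 272 in WT and 306, 263 and 280 in *UTX TCD*, with overlap. *Cd4* fell from 90.1, 104 and 83.1 to 58.5, 68.1 and 41.3, or by 0.74 (log2; limma, adjusted p = 0.0384), and its adjusted p lay between 0.0619 and 0.101 when any library but *UTX TCD* replicate 2 was left out. The other gene that fell was *Zbtb7b*, at 9 to 86.2. The part of these cells in the *Il2ra* values was not tested.

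Myeloid and dendritic cell markers summed to 420 to 787 over 8 genes, most of it *Cd74*. Of 5 tested, 2 fell, *Csf1r* and *Itgax*, where 7.05% of all genes tested fell. *Cd74* was higher in every *UTX TCD* library, at 346, 333 and 630 against 277, 315 and 255 in WT. It was not called, at 0.57 (log2 fold change; limma, adjusted p = 0.0813). *Lyz2* (0.07) and *H2-Aa* (0.26) were not called either, and *Cd14* lay between 0 and 3.96. Of 5 genes of naive or resting T cells, none was called, but 3 passed the adjusted p without overlap and in opposite directions. Over all genes tested, 40.7% passed it and 51.9% did not overlap. *Klf2* stood at -0.46 (limma, adjusted p = 0.000109), *S1pr1* at -0.41 (0.000225) and *Lef1* at 0.38 (0.00517) on the log2 scale. Of 6 genes of antigen-experienced T cells, 5 were tested and 1 fell, *Ccl5*, from 685, 1089 and 631 to 227, 190 and 672, with overlap. *Ccl5* was at -1.34 (log2; limma, adjusted p = 0.0325) and was not called without WT replicate 1 (adjusted p = 0.0579), WT replicate 2 (0.112), *UTX TCD* replicate 1 (0.083) or *UTX TCD* replicate 2 (0.105). *Cd44*, at 0.17, was the other gene of that list that passed the adjusted p, in the opposite direction. The naive list summed to 485758 to 528441 and the antigen-experienced list to 32928 to 42828 over the 6 libraries. The part of any of these markers in the receptor values was not tested.

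Chromatin accessibility was read from the listed ATAC-seq peaks, which the authors had selected as differing between genotypes at an FDR under 0.05. For each peak the table gives the authors' mean for each genotype as a log2 concentration, with no values per library, so the difference of the means is a description. Of the 19 peaks named for a receptor gene, 12 were higher and 7 lower in *UTX TCD*, against 68.8% higher among all 23932 listed peaks. Of those that differed by over 0.5, 5 were higher and 7 lower, against 67.5% higher among all listed peaks of that size, and of those that differed by over 1, 2 were higher and 3 lower, against 65.1%. The median difference was 0.35 over the 19 and 0.49 over all listed peaks. *Il7r* and *Il21r* had 5 peaks each, *Il2ra* 4, *Il4ra* 3 and *Il2rb* 2, while no listed peak carried the name of *Il2rg* or *Il15ra*. None of the 19 was annotated to a promoter in the deposited annotation, where 11% of all listed peaks were. Of the 19, 9 lay in introns and 6 between genes. Coordinates are of mm10.

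The 2 peaks named for *Il2rb* differed most in size and in opposite directions. The peak at chr15:78502739-78503139, 7.9 kb upstream of the annotated start, had the authors' mean of 7.02 in WT and 8.61 in *UTX TCD*, a difference of 1.59. It lies between genes in the deposited annotation, and within the longer gene body that RefSeq gives *Il2rb* on GRCm38, from 78479256 to 78511621 on the minus strand. The peak at chr15:78512054-78512454, 17.2 kb upstream of the annotated start, had 9.02 in WT and 7.70 in *UTX TCD*, a difference of -1.32. It lies just upstream of the RefSeq start of *Il2rb* at 78511621. The upstream peak nearer the annotated start was thus more accessible in *UTX TCD* cells, and the one beyond the RefSeq gene body less accessible.

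Listed peaks named for other genes also lay at *Il2rb*, picked by position after their values were seen. The peak at chr15:78481363-78481763 is in exon 10 of 10 of *Il2rb* but carries the name *Tmprss6*, and had 7.13 in WT and 7.59 in *UTX TCD*. A second *Tmprss6* peak, at chr15:78475559-78475959 just past the 3′ end of *Il2rb*, had 10.11 and 10.76. *Tmprss6* itself was listed at 0 to 0.987 normalized counts. Upstream, the peaks at chr15:78514686-78515086 and chr15:78518300-78518700, named *C1qtnf6*, had 9.39 and 8.78, and 9.16 and 8.51. Along this stretch the peaks at and inside the gene were higher in *UTX TCD* and the 3 beyond its upstream end were lower.

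At *Il4ra* all 3 named peaks were higher. Those in intron 1 of 10, at chr7:125559018-125559418 and chr7:125561194-125561594, had 9.53 in WT and 10.10 in *UTX TCD*, and 10.68 and 11.03. The third, at chr7:125541818-125542218, lies 10.3 kb upstream and had 8.28 and 8.66. *Il21r* lies downstream of *Il4ra* on the same strand, and 2 of its 5 named peaks are at the end of *Il4ra*. The peak at chr7:125578104-125578504, in the last exon of *Il4ra*, had 8.63 in WT and 9.63 in *UTX TCD*, a difference of 1.00, and the peak at chr7:125579849-125580249, at the end of that transcript, had 10.21 and 10.47. Counted by position, within 10 kb of the gene body, 4 peaks lay at *Il4ra*, all of them higher, and 3 at *Il21r*, of which 2 were higher and 1 lower.

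The other *Il21r* peaks were 1 upstream, 1 in intron 1 of 8 and 1 in a neighbouring gene. The peak at chr7:125597087-125597487, 6.1 kb upstream, had 9.51 in WT and 9.87 in *UTX TCD*, and that at chr7:125621640-125622040, in intron 1 of 8, had 8.78 and 9.32. The peak at chr7:125643873-125644273 lies in exon 34 of 37 of *Gtf3c1* and was lower, at 6.97 and 5.88. Over the whole stretch from *Il4ra* to *Il21r*, 7 of 8 named peaks were higher, and this last one, outside both genes, was the exception.

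At *Il2ra* the directions were mixed, 2 higher and 2 lower. The peak 6.6 kb upstream, at chr2:11636038-11636438, had 7.56 in WT and 6.72 in *UTX TCD*. In intron 1 of 7, the peak at chr2:11651439-11651839 was lower, at 8.61 and 7.90, while those at chr2:11653358-11653758 and chr2:11663974-11664374 were higher, at 11.01 and 11.37, and at 9.04 and 9.35. The lower and the higher intronic peaks nearest each other are less than 2 kb apart. No listed peak lay between the end of *Il2ra* and the start of *Il15ra*, or in *Il15ra* itself.

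Peaks named for *Il7r* were mostly far from it. The peak at chr15:9505124-9505524, at the end of the gene, had 6.30 in WT and 5.52 in *UTX TCD*, and that at chr15:9554955-9555355, 25.3 kb upstream, had 6.14 and 5.04. The other 3 are in introns of *Spef2*, 66.9 to 93.3 kb upstream. Those at chr15:9596614-9597014 and chr15:9600076-9600476 were higher, at 7.33 and 7.81, and at 8.19 and 8.70, and that at chr15:9622972-9623372 was lower, at 6.64 and 5.67. At *Il2rg* a peak at chrX:101265056-101265456, in intron 7 of 7 but named *Gm614*, had 9.02 in WT and 8.69 in *UTX TCD*. A second *Gm614* peak, at chrX:101260704-101261104, had 8.91 and 8.55. Both were lower, as the *Il2rg* counts were, and were picked by position after their values were seen.

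**Figure D3:**
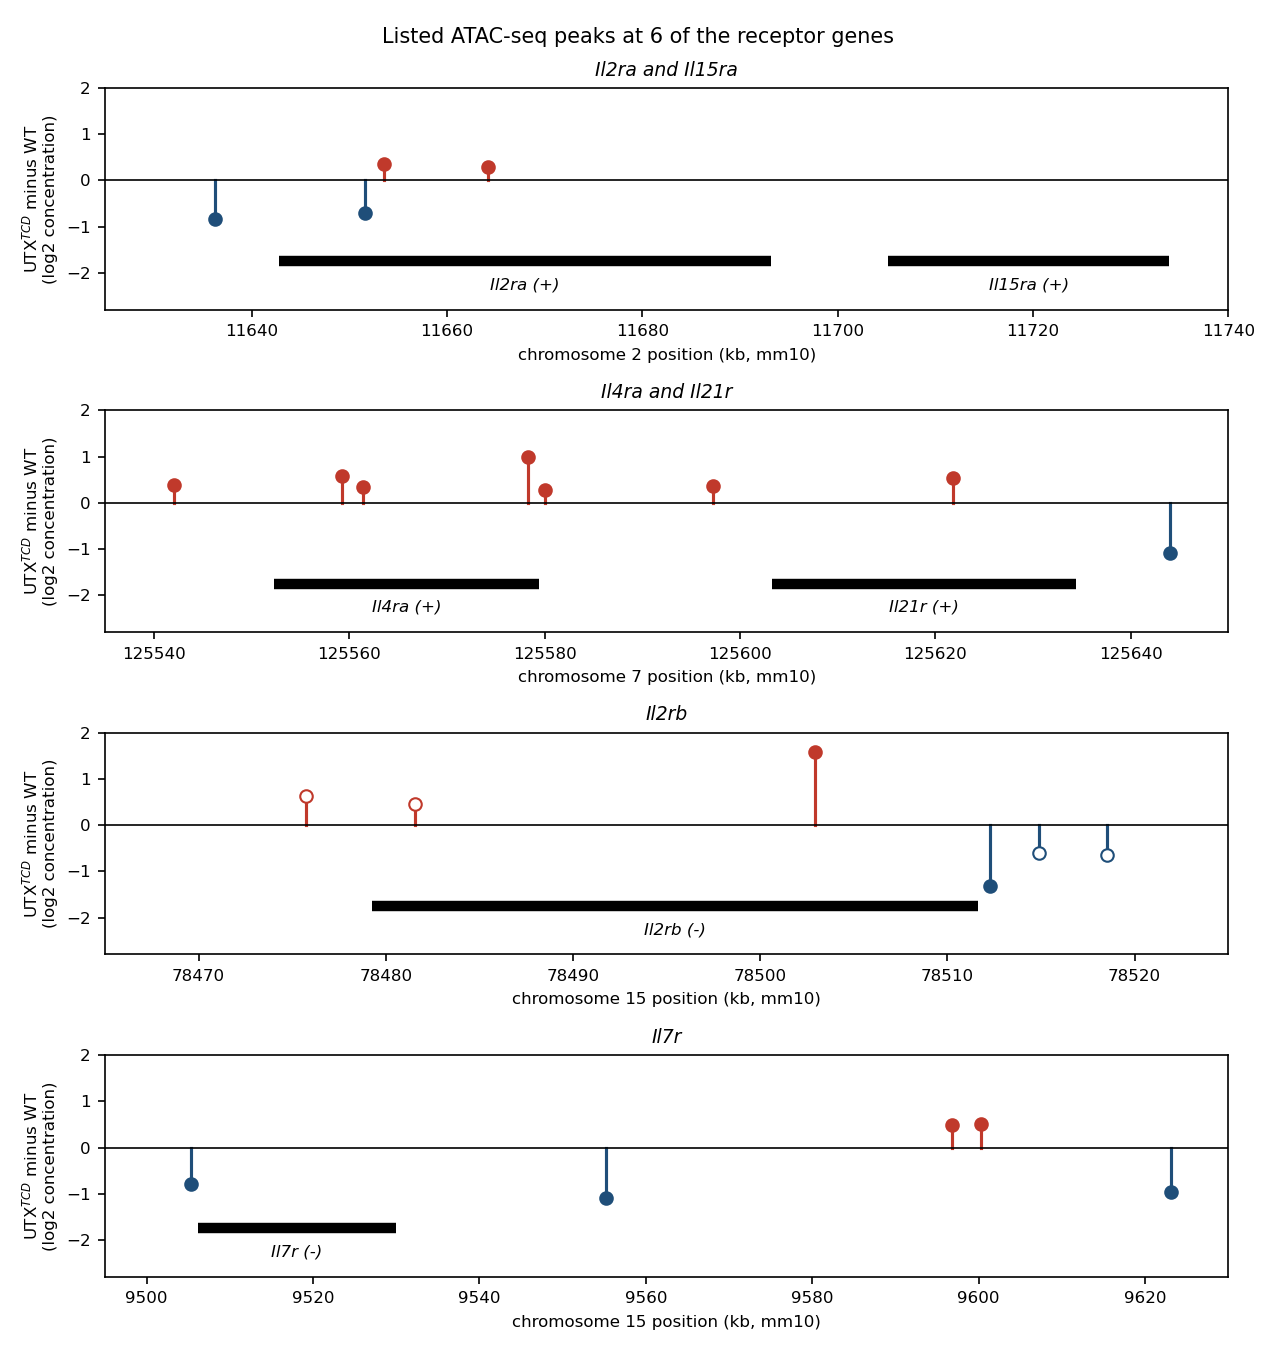
Difference of the authors' mean log2 concentrations, *UTX TCD* minus WT, for listed ATAC-seq peaks at *Il2ra* and *Il15ra*, *Il4ra* and *Il21r*, *Il2rb*, and *Il7r*, against mm10 position in kilobases. Red is higher and blue lower in *UTX TCD*, filled points are peaks named for a receptor gene and open points peaks named for another gene, and black bars are RefSeq gene bodies with their strand. The *Il2rb* peaks at 1.59 and -1.32 are the largest of the 19 in each direction.

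The central 300 bases of each listed peak were searched on both strands for 5 motifs of factors that act downstream of these receptors or on their genes. The motifs were chosen with the peaks in view. TTCNNNGAA, bound by STAT proteins, was in 5 of the 19 receptor peaks and in 8.82% of the 23908 listed peaks on assembled chromosomes. CTTTGA, bound by TCF1 and LEF1, was in 4 of 19 and 25.1%. TGTGGT, bound by RUNX factors, was in 9 of 19 and 34.4%. GGTGTGA, a T-box motif, was in 0 of 19 and 5.67%, and GTAAACA, bound by FOXO factors, in 0 of 19 and 4.15%. The 5 peaks with a STAT match were 2 of the 12 higher and 3 of the 7 lower peaks. A match is a run of letters and not a measured site.

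The 5 sequences shown are the *Il2rb* pair that moved apart, the *Il2ra* intron pair that did so at short distance, and the *Il4ra* intron peak with a STAT match. They are the plus strand of GRCm38 (mm10) from RefSeq, which is C57BL/6J and not NOD, with matches to the 5 motifs on either strand in capitals.
Il2rb, chr15:78502790-78503089, higher: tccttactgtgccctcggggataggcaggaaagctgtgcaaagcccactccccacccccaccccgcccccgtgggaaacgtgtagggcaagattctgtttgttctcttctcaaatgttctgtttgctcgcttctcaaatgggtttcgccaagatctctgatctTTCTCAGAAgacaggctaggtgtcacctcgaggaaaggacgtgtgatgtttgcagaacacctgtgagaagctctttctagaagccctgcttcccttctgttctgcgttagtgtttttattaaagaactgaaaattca
Il2rb, chr15:78512105-78512404, lower: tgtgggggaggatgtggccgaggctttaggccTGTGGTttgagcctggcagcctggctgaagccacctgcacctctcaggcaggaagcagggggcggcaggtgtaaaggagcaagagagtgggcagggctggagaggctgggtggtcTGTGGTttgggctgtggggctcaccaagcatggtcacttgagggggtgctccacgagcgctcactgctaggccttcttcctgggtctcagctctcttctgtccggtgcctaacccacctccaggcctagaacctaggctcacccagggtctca
Il2ra, chr2:11651490-11651789, lower: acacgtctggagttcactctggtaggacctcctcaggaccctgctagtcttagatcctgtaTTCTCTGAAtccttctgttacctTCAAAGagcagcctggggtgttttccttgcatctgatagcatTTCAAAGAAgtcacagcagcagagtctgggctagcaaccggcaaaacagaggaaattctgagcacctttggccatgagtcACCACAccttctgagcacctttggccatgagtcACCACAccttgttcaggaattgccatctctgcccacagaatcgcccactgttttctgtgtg
Il2ra, chr2:11653409-11653708, higher: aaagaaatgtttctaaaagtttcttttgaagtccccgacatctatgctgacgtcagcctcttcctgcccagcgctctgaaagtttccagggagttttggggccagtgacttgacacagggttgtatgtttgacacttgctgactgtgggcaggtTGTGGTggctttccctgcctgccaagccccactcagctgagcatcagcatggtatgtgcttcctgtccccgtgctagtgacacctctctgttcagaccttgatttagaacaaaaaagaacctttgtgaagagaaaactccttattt
Il4ra, chr7:125561245-125561544, higher: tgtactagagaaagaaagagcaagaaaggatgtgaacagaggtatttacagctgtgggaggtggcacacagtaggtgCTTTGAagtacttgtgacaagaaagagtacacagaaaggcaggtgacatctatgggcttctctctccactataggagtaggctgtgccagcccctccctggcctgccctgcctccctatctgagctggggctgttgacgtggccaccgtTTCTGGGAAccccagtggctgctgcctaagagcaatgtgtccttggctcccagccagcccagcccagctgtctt

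The higher *Il2rb* peak held 1 STAT match and the lower one 2 RUNX matches. The lower *Il2ra* peak held 2 STAT, 2 TCF1 and LEF1 and 2 RUNX matches, and in TTCAAAGAA a STAT and a TCF1 and LEF1 match overlap. The higher *Il2ra* peak held 1 RUNX match, and the *Il4ra* peak held 1 STAT and 1 TCF1 and LEF1 match.

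Neighbouring genes within 100 kb of a receptor gene's start moved in their own ways. Near *Il2rb*, *Kctd17* rose from 72.3, 91.8 and 68.6 normalized counts in WT to 281, 289 and 376 in *UTX TCD* (log2 fold change 2.01 ± 0.19, SE; limma, adjusted p = 5.6e-05). *C1qtnf6*, on the side of the less accessible peaks, fell by 0.62 ± 0.14 (log2, SE; adjusted p = 0.00771), from 336, 336 and 317 to 227, 182 and 237. The GTPase gene *Rac2* and *Cyth4* stood at -0.38 ± 0.07 and -0.44 ± 0.06 (log2 fold change, SE; adjusted p = 0.00211 and 0.000697), within the limit. *Il2rb* was thus higher in a stretch where 3 neighbours were lower and 1 was higher.

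Near *Il2rg*, *Nlgn3* rose by 0.95 ± 0.13 (log2, SE; limma, adjusted p = 0.000469), while *Foxo4*, *Snx12*, *Med12* and *Gm614* were not called. None of the tested neighbours of *Il2ra*, *Il15ra* or *Il7r* was called. *Fbh1* and *Ankrd16*, near *Il15ra*, each had a log2 fold change of 0.26 (adjusted p = 0.00159 and 0.00755). *Nsmce1*, near *Il4ra*, had -0.24 ± 0.07 (SE; adjusted p = 0.0254), opposite in sign to *Il4ra*.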

How the data were processed

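RNA-seq and ATAC-seq of sorted CD8+ T_prog_ cells had 3 libraries per genotype, grouped and numbered by their labels. For RNA-seq the authors aligned reads to mm10 with HISAT2 (2.2.1), counted reads per gene with featureCounts and scaled libraries with DESeq2. In the deposited RNA-seq table the signal is the count per gene divided by a size factor, and 100% of values came out as whole reads to within 0.01 reads. The strand setting is not given in the sources used here, so values of genes that overlap on either strand are uncertain. ATAC-seq reads were trimmed by the authors with cutadapt, aligned with Bowtie2 and freed of duplicates with Picard, and peaks were called with MACS2 and compared with DiffBind. The deposited ATAC-seq values used are the log2 mean concentrations per genotype, and every peak in the deposited table has an FDR, an adjusted p-value, under 0.05. The authors' fold changes and p-values, which the tables also hold, were not used further.

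Genes with a mean of at least 10 over 6 libraries were tested with limma (3.58.1, R 4.3.3) on log2(value + 1), with a trend and Benjamini-Hochberg adjustment over 14459 genes. Fold changes on that scale understate changes of low genes. Genes were called at an adjusted p under 0.05 with a log2 fold change beyond 0.5 in size. The code was tested on simulated data. Exon lengths came from GENCODE and gene bodies and sequence from RefSeq on GRCm38. The receptor genes and lists were chosen with earlier results of these data known. Named were the receptor genes and their peaks, *Kdm6a*, sort markers, the listed pathway and cell type genes, the 3 genes most alike to each receptor gene with a mean of at least 100, and neighbours within 100 kb; values of some of these genes are not reported here. Alternatives covered the pseudocount, filter, scaling, test, call limits, replicate block, left-out libraries and how peaks were given to genes, with edgeR (4.0.16) and DESeq2 (1.42.0) run on the recovered reads.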

Additional observations from a re-analysis of the deposited data

How the results depend on the processing

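*Il2rb* and *Il4ra* were called under all 18 alternatives of the fit, at log2 fold changes of 0.59 to 0.69 and 0.62 to 0.72, and no other receptor gene was called under any with a limit on fold change. *Il7r* was the 1 receptor gene whose fold change changed sign, at 0.07 without WT replicate 2, and leaving out each library gave -0.48 to 0.07. Its ratio to *Il2rg*, at -0.01, ranged from -0.23 to 0.37, while the ratios of the other 5 partner chains kept their sign. Without a limit on fold change *Il2rg* (-0.27) and *Il21r* (0.21) passed too, which gave 4 receptor genes and 5887 genes in all, as any looser limit gives more. Leaving out 1 library gave 2164 to 2570 called genes, against 2538 with all 6, edgeR called 2541 and DESeq2 2422. With equal library sums 66.9% of called genes were higher, against 59.8%.

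Same-numbered libraries of the 2 genotypes correlated at 0.31, -0.20 and 0.09 in their deviations from the genotype means. Libraries with different numbers correlated at -0.32 to 0.29. Deviations within a genotype depend on each other, so these values cannot tell whether the numbers pair the libraries. With the replicate block 2474 genes and 2 receptor genes were called. *Il2rb* had 0.63 and *Il4ra* 0.66 under the block, and no receptor gene changed its call.

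Of the 12 higher and 7 lower peaks, 5 and 7 differed by over 0.5 and 2 and 3 by over 1, so the lower ones were then more numerous, and the cause was not tested. Within 10 kb of the start lay 4 higher and 2 lower. By gene body with 10 kb on each side, 11 were higher and 9 lower. The depth of *UTX TCD* replicate 1, at 61512402 reads, was the lowest, and *Il2ra* was the receptor gene with the fewest reads. Without that library *Il2ra* had a log2 fold change of 0.41, against 0.36 with all libraries and 0.15 without *UTX TCD* replicate 3. Peak differences rest on genotype means and have no error.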
